A study of Mus musculus with 4 samples.

Results

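The creatine kinases, adenylate kinases, creatine transporter and myoglobin of the mouse heart form a set of 8 genes chosen by name: Ckm, Ckb, Ckmt2, Ak1, Ak3, Ak4, Slc6a8 and Mb. All 8 were found among the 18781 named genes of the array table, each through the probe set that carries its gene number. They were read in dissected heart chambers from mice 2 months old, in 4 groups: atria of Mef2a knockout mice (Mef2a-/-), atria of wild type mice (Mef2a+/+), ventricles of Mef2a knockout mice and ventricles of wild type mice. RNA of 7 mice, males and females mixed, was pooled for each group and put on 1 array. Mef2a encodes a member of the MEF2 transcription factors, which drive genes of heart and skeletal muscle. The labels describe no treatment and do not say which part of Mef2a was removed.

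The heart turns over its ATP rapidly and without pause. Creatine kinase moves a phosphate group between ATP and creatine, with a mitochondrial enzyme on the producing side and cytosolic enzymes beside the consumers. Adenylate kinases interconvert ATP, ADP and AMP and so link energy use to the AMP signal, and myoglobin binds oxygen inside the muscle cell. Ckm and Mb are classical muscle genes with MEF2 binding sites described in their control regions.

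With 1 array per group there was no replicate error, and every difference below is a description of these pools without a test. Values are log2 intensities, a ratio is the difference of 2 log2 values, and a level is compared only within 1 gene or 1 list. The summed level of a list is the log2 of its summed intensities, so its brightest genes weigh most. A gene was counted as past the fold at 1.5-fold for knockout over wild type or 2-fold for atria over ventricles, provided that the brighter array reached the median of all values, 5.71, called the floor. All 8 members lay above the floor on all 4 arrays, so the floor removed none. The targeted gene did not check the labels: Mef2a stood at 10.41 on the knockout atria array against 10.32 in wild type atria, and at 10.34 in knockout ventricles against 10.28 in wild type ventricles. The values of the knockout atria array were also more compressed, with an interquartile range of 2.97 against 3.18 to 3.21 on the other arrays. The chamber labels fitted their markers, as all 7 atrial markers were at least 2-fold higher in atria in both genotypes, and of 5 ventricular markers 5 in knockout and 4 in wild type were at least 2-fold lower in atria.

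**Figure D1:**
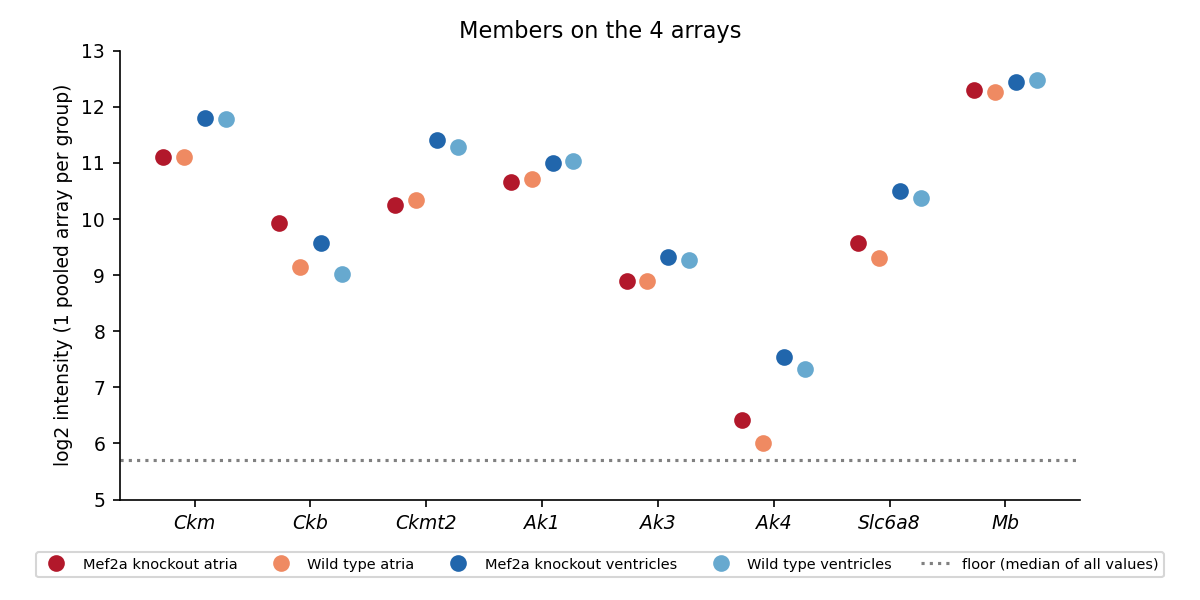
Log2 intensity (vertical axis) of each member (horizontal axis) on the 4 arrays, 1 point per pooled array, with the floor of 5.71 dotted. Ckb has both knockout points above both wild type points, while most other members separate by chamber.

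Ckb, the brain-type cytosolic creatine kinase, was the member that separated the genotypes. Its log2 intensity was 9.93 in knockout atria and 9.14 in wild type atria, and 9.58 in knockout ventricles and 9.03 in wild type ventricles. Both knockout arrays were above both wild type arrays, and the order of the chambers, atria above ventricles, was the same in each genotype. The knockout ratio was 0.79 in atria, or 1.73-fold higher, and 0.55 in ventricles, or 1.47-fold higher, which falls just short of the fold used for counting. In atria 0.448% of the 10050 genes above the floor had a higher ratio, and in ventricles 0.628% of 9712. Of 9436 genes above the floor in both chambers, 8 including Ckb were at least as high in both. Under the 4 scalings tried, the Ckb ratio ranged over 0.76 to 0.85 in atria and 0.53 to 0.58 in ventricles.

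Ckm, the muscle-type cytosolic enzyme bound in part to the sarcomere, did not follow. It read 11.10 in knockout atria and 11.11 in wild type atria, and 11.80 in knockout ventricles and 11.78 in wild type ventricles. The genotypes lay almost on top of each other in each chamber. The knockout ratios were -0.0092 in atria and 0.028 in ventricles, or 1.01-fold and 1.02-fold in size, and the sign of the atrial ratio turned under another scaling. Ckmt2, the sarcomeric mitochondrial enzyme, read 10.26 in knockout atria and 10.33 in wild type atria, and 11.42 in knockout ventricles and 11.28 in wild type ventricles. Its knockout ratios were -0.076 and 0.14, small and opposite in the 2 chambers.

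Set against Ckm on the same arrays, where any shift common to a whole array cancels, Ckb was 1.74-fold higher in knockout atria than in wild type atria and 1.44-fold higher in knockout ventricles than in wild type ventricles. Against Ckmt2 the corresponding sizes were 1.82-fold and 1.33-fold.

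The stretches before the starts of Ckb, Ckm and Mb are shown because Ckm and Mb are the described MEF2 targets of the set and Ckb is the member with the genotype difference. RefSeq windows on GRCm38.p6 were found for 7 of the 8 members, and of each the 250 bases before the annotated start were searched on both strands. Capitals mark matches to the MEF2 consensus, the TATA box TATAAA, the CCAC box CCCACCC and the E-box CANNTG. The TATA box was searched only as these exact letters, so the tatataa stretch near the end of the Ckm window is unmarked. For Mb, 1 of 3 annotated windows is shown.

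Ckb promoter, chr12:111672339-111672588, minus strand: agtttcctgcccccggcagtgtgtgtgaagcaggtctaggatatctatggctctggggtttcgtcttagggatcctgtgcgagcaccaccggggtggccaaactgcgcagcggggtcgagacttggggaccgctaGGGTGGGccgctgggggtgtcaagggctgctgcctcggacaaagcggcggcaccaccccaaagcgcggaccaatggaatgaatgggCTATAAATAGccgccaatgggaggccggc
Ckm promoter, chr7:19410844-19411093, plus strand: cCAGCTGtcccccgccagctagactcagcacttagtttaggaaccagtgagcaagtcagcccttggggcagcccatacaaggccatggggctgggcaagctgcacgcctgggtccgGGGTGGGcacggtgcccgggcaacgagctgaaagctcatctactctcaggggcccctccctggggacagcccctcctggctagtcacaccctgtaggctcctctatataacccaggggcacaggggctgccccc
Mb promoter, chr15:77022788-77023037, minus strand: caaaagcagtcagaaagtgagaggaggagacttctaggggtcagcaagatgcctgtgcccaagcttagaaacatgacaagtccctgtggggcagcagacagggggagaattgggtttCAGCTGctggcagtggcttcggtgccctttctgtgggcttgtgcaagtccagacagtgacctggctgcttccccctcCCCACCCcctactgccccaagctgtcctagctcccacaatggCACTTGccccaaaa

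Among the windows of these members the MEF2 consensus matched only in Ckb, 29 to 20 bases before the start, where it overlaps the TATA box letters. Of 32851 windows of the same length in the RefSeq table, 2.92% held a MEF2 consensus match, 12.4% the TATA box letters, 15.8% the CCAC box and 66.2% an E-box. The Ckm window held a CCAC box and an E-box, and the Mb window shown a CCAC box and 2 E-boxes. Of the Mb windows not shown, 1 held 2 E-boxes and no CCAC box, and 1 held 3 E-boxes and a CCAC box. That CCAC box lay 116 to 110 bases before the start, against 56 to 50 in the window shown, so counts and positions for Mb depend on the annotated start. The Ckmt2 window held 4 E-boxes, and the Ak3 window held none of these motifs. The CArG box was found in no window of the set, against 1.47% of all windows. A match describes letters in this window and does not show binding, and more distant enhancers were not searched.

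**Figure D2:**
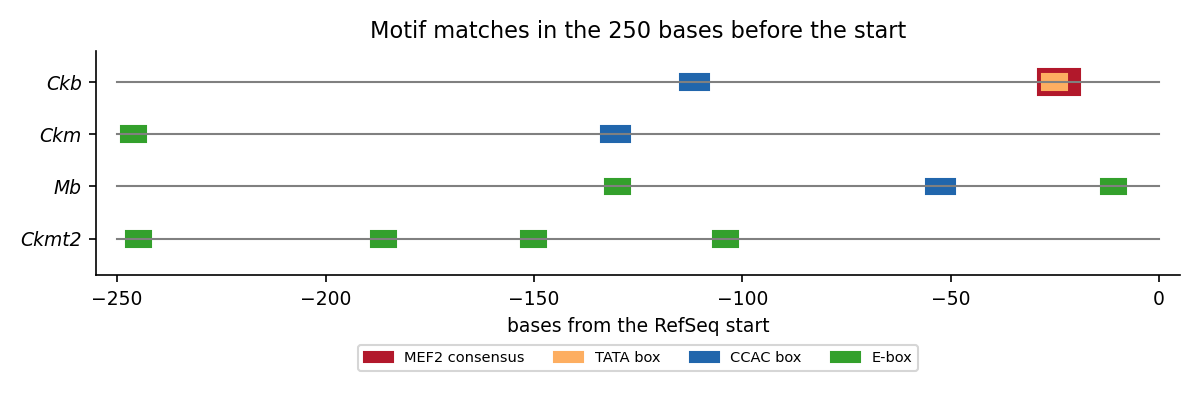
Position of motif matches in the 250 bases before the RefSeq start (horizontal axis, bases from the start) for Ckb, Ckm, Mb (the window printed above) and Ckmt2, 1 line per gene. The MEF2 consensus match of Ckb lies over its TATA box match. Of the motifs as searched, the other 3 lines carry CCAC boxes or E-boxes only, and variants of the TATA box letters were not searched.

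Myoglobin, the oxygen-binding protein of muscle, read 12.30 in knockout atria and 12.26 in wild type atria, and 12.45 in knockout ventricles and 12.48 in wild type ventricles. All 4 values lay within 0.22 of each other. The knockout ratio was 0.042 in atria and -0.033 in ventricles, or 1.03-fold and 1.02-fold in size. The Mb values stood 0.24, 0.36, 0.21 and 0.18 below the highest value of the knockout atria, wild type atria, knockout ventricles and wild type ventricles arrays. They were thus close to the upper end of the scale, and whether that narrowed the ratios was not tested. The red cell globin gene Hbb-bt, which marks blood left in the tissue, read 7.00 in knockout atria against 7.74 in wild type atria, and 8.40 in knockout ventricles against 8.48 in wild type ventricles. The 3 erythroid markers with a named probe set, of 7 listed, summed to 7.94 in knockout atria against 8.42 in wild type atria, and to 9.15 in both ventricular pools.

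Of the 3 adenylate kinases of the set, Ak4 alone differed between the genotypes by more than 1.1-fold. Ak1, the cytosolic muscle form, read 10.66 in knockout atria and 10.72 in wild type atria, and 11.00 in knockout ventricles and 11.04 in wild type ventricles, with knockout ratios of -0.052 and -0.042. Ak3, a matrix enzyme that uses GTP, read 8.90 on both atrial arrays, and 9.32 in knockout ventricles and 9.27 in wild type ventricles, with knockout ratios of -0.00072 and 0.054. Neither gene separated the genotypes by more than 1.04-fold in either chamber.

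Ak4, a mitochondrial adenylate kinase known as a target of hypoxia signalling, read 6.42 in knockout atria and 6.00 in wild type atria, and 7.54 in knockout ventricles and 7.32 in wild type ventricles. The knockout array was the higher in each chamber, by 0.42 (1.34-fold) in atria and 0.22 (1.16-fold) in ventricles. Both atrial values were within 0.72 of the floor, the part of the scale where such arrays compress differences. Of 9436 genes above the floor in both chambers, 75 including Ak4 were at least as high in both.

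Slc6a8, the transporter that brings creatine into the muscle cell from the blood, read 9.57 in knockout atria and 9.30 in wild type atria, and 10.50 in knockout ventricles and 10.38 in wild type ventricles. Again the knockout array was the higher in each chamber, by 0.27 (1.21-fold) and 0.12 (1.08-fold). Neither ratio reached the fold.

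Counted over the set, 1 of 8 members was at least 1.5-fold higher in knockout atria and 0 in knockout ventricles, where 1.02% and 0.515% of all genes above the floor were. None was at least 1.5-fold lower in either chamber, against 2.01% and 0.690% of all genes. At 2-fold 0 members were higher in either chamber, against 0.169% of all genes in atria and 0.144% in ventricles. The median knockout ratio was 0.021 over the members and -0.034 over all genes above the floor in atria, and 0.086 and 0.0038 in ventricles. The median of the members in atria was negative, -0.013, under median centring, which lowers the ratio of every gene in that comparison by the same amount. A ratio within 1.1-fold was found for 5 members in atria and 6 in ventricles, where 49.3% and 71.5% of all genes lay as close. The difference of the knockout ratios between the chambers, atria minus ventricles, was 0.24 for Ckb, 0.20 for Ak4, 0.16 for Slc6a8 and -0.21 for Ckmt2, and at most 0.075 in size for the other 4 members. A difference at least as large as that of Ckb was seen in 27.3% of the 9436 genes. No comparison of the chambers had a test.

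**Figure D3:**
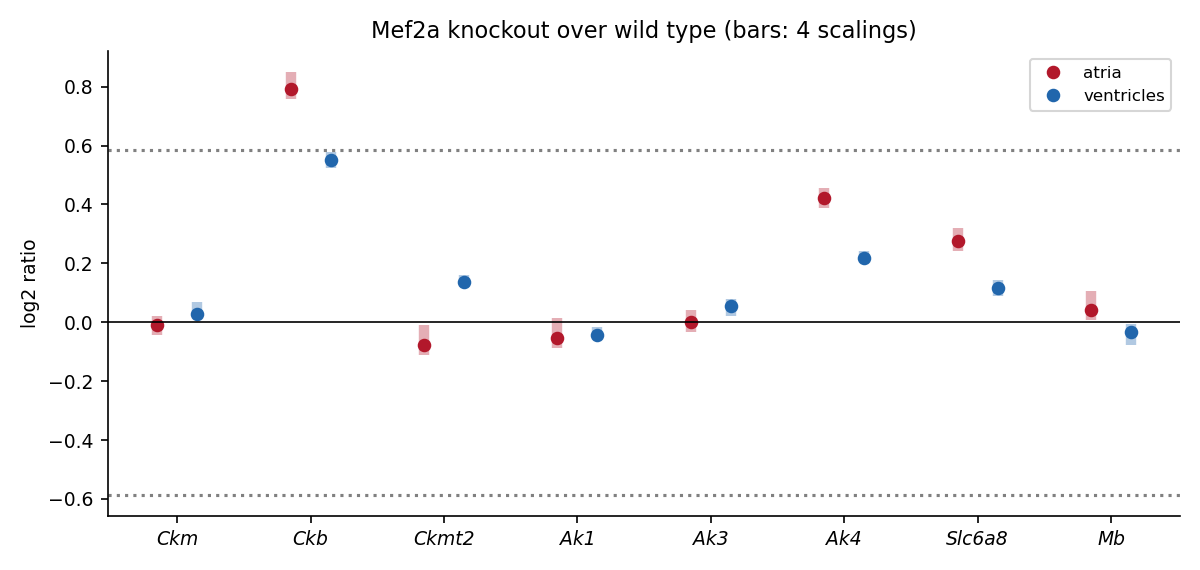
Log2 ratio of Mef2a knockout over wild type (vertical axis) for each member in atria and ventricles, with bars for the range over 4 scalings and dotted lines at 1.5-fold. Ckb in atria is the point past a dotted line, at 0.79, and Ckm, Ak1, Ak3 and Mb stay near 0.

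**Figure D4:**
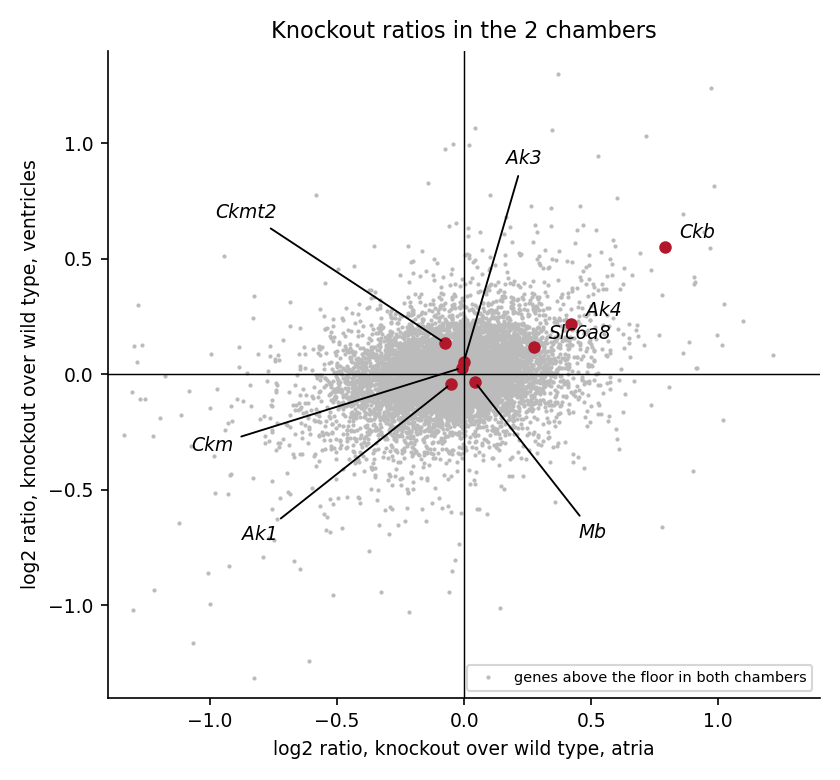
Knockout over wild type log2 ratio in atria (horizontal axis) against ventricles (vertical axis), with grey points for 9436 genes above the floor in both chambers and red points for the members (23 genes lie outside the axes). Ckb stands at 0.79 and 0.55, farther from the origin than any other member.

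Ckb is made by cells other than cardiomyocytes, so markers of other cell types are given beside it. Of 6 smooth muscle markers, all measured, Acta2 was past 1.5-fold higher (0.61) and Cnn1 past it lower (-1.29) in knockout atria, and none was past it in ventricles. Their summed level was 10.64 in knockout atria against 10.44 in wild type atria, and 11.27 in knockout ventricles against 11.02 in wild type ventricles. Acta2 was the brightest of these markers on every array and weighs most in that sum. For those above the floor the median knockout ratio was 0.036 in atria, with 3 higher and 2 lower. In ventricles it was -0.054, with 2 higher and 2 lower. Of 7 measured neuron and glia markers, 6 lay below the floor on every array and Stmn2 differed by 0.14 and -0.074. Their summed level was 7.56 in knockout atria against 7.42 in wild type atria, and 7.77 in knockout ventricles against 7.82 in wild type ventricles.

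Endothelial markers, 6 of 6 above the floor, summed to 12.12 in knockout atria against 12.06 in wild type atria, and to 11.87 in knockout ventricles against 11.83 in wild type ventricles, with none past the fold. Fibroblast markers ran the other way: all 7 were lower in both knockout pools, with Lum, Pdgfra and Dpt past 1.5-fold in atria, and summed to 12.61 in knockout atria against 13.04 in wild type atria, and to 12.16 in knockout ventricles against 12.26 in wild type ventricles. Cardiomyocyte markers summed to 15.04 in knockout atria against 15.10 in wild type atria, and to 15.24 in knockout ventricles against 15.25 in wild type ventricles, with 0 of 9 past the fold. Between genotypes 0 atrial or ventricular markers passed 1.5-fold in atria, and 1 of each list did in ventricles. The ventricular marker Myh7 was higher there, at 9.65 in knockout against 8.66 in wild type. The atrial marker Sln was lower, at 5.09, below the floor, in knockout against 5.95 in wild type.

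Among adipocyte markers, Cidea was higher in the knockout pool of both chambers, and Car3 was lower in knockout atria and higher in knockout ventricles. Of 7, only Cidea and Car3 lay above the floor on any array, and Adipoq and Plin1, which define fat cells, lay below it on all 4. Cidea read 6.68 in knockout atria against 6.39 in wild type atria, and 7.78 in knockout ventricles against 7.16 in wild type ventricles. Car3 lay below the floor in knockout atria, against 7.58 in wild type atria, and read 6.48 in knockout ventricles against 5.74 in wild type ventricles. Both were thus past 1.5-fold higher in knockout ventricles, and Car3 was past it lower in knockout atria. The list summed to 8.20 in knockout atria against 8.72 in wild type atria, and to 8.78 in knockout ventricles against 8.38 in wild type ventricles.

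Of 5 measured macrophage markers 4 lay above the floor with none past the fold, and the list summed to 9.29 in knockout atria against 9.28 in wild type atria, and to 9.03 in knockout ventricles against 9.20 in wild type ventricles. Of 10 skeletal muscle markers, 3 lay above the floor in wild type atria and 1 in knockout atria, and Tnni2 and Tnnt3 were past 1.5-fold lower in knockout atria. Tnnt3 lay below the floor in knockout atria, at 5.35 against 6.00 in wild type atria, and so passed only by its measured value. Tnni2 was close to the floor there, at 5.79 against 6.37. Their sum was 8.28 in knockout atria against 8.57 in wild type atria, and 8.08 in knockout ventricles against 8.09 in wild type ventricles. The part of these cell types in the Ckb values was not tested, and in such bulk tissue fewer cells of a type and less RNA per cell cannot be told apart.

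In 7 of 8 members, all but Ckb, the chamber ratios were larger in size than the genotype ratios. Under lowess centring this did not hold for Mb, at -0.055 between the wild type chambers against 0.067 between the genotypes in atria. Nor did it hold for Mb under quantile normalization, at -0.076 between the knockout chambers against 0.11 between the genotypes in atria. Over all genes above the floor the chamber ratios were also the wider, with standard deviations of 0.58 in knockout and 0.57 in wild type hearts, against 0.26 in atria and 0.19 in ventricles for the genotype ratios. The chamber comparison of wild type hearts shares an array with each knockout comparison, and so does that of knockout hearts. In each genotype 7 of 8 members were lower in atria than in ventricles, and Ckb was the exception, at 0.35 in knockout and 0.11 in wild type hearts (log2 ratio, atria over ventricles). The median over the members was -0.57 in knockout and -0.52 in wild type hearts, and over all genes above the floor it was -0.047 in knockout and -0.012 in wild type hearts. Of all genes above the floor 55.4% were negative in knockout and 51.5% in wild type hearts.

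Ak4, Ckmt2 and Slc6a8 had the lowest atrial ratios. Ak4 was lower in atria by a log2 ratio of -1.11 in knockout hearts and -1.32 in wild type hearts, that is 2.16-fold in knockout and 2.49-fold in wild type hearts. Ckmt2 stood at -1.16 in knockout (2.23-fold) and -0.95 in wild type hearts (1.93-fold). Slc6a8 stood at -0.92 in knockout (1.90-fold) and -1.08 in wild type hearts (2.12-fold). Ak4 passed the 2-fold line in both genotypes. Ckmt2 and Slc6a8 lie close to it, so which of them passes differs between the genotypes without a large difference in value.

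Ckm was lower in atria by 1.63-fold in knockout and 1.59-fold in wild type hearts. Ak3 was lower by 1.35-fold in knockout and 1.30-fold in wild type hearts, and Ak1 by 1.26-fold in knockout and 1.25-fold in wild type hearts. Mb was lowest in size at -0.14 in knockout and -0.22 in wild type hearts, and its sign in knockout hearts turned to 0.059 under one of the other scalings. In size the order of the 7 lower genes in wild type hearts was Ak4, Slc6a8, Ckmt2, Ckm, Ak3, Ak1 and Mb. In knockout hearts Ckmt2 came first, followed by Ak4, Slc6a8, Ckm, Ak3, Ak1 and Mb. Without replicate arrays it cannot be said which neighbours in these orders differ.

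Past 2-fold lower in atria were 2 of 8 members in knockout hearts (Ckmt2 and Ak4), where 2.85% of all genes were, and 2 of 8 in wild type hearts (Ak4 and Slc6a8), where 2.21% were. None was 2-fold higher in atria, against 3.46% of all genes in knockout and 3.89% in wild type hearts. At 1.5-fold, 4 of 8 members were lower in atria in each genotype, where 10.1% of all genes were in knockout and 7.82% in wild type hearts. Cardiomyocyte markers, 9 of 9 lower in atria in both genotypes, had medians of -0.11 in knockout and -0.088 in wild type hearts. Fibroblast markers were higher in atria for 7 of 7 genes in both, with medians of 0.43 in knockout and 0.95 in wild type hearts. The part of this difference in tissue makeup in the chamber ratios was not tested.

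**Figure D5:**
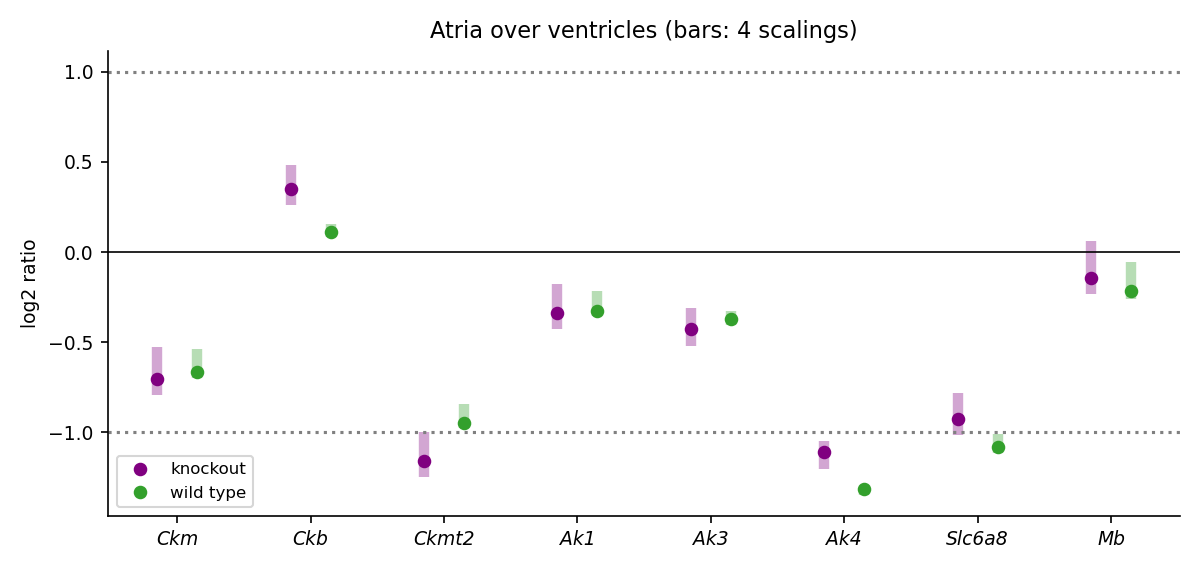
Log2 ratio of atria over ventricles (vertical axis) for each member in knockout and wild type hearts, with bars for the range over 4 scalings and dotted lines at 2-fold. All members but Ckb have points below 0 in both genotypes, with Ak4, Ckmt2 and Slc6a8 near or past the lower line.

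The remaining genes of creatine, adenine nucleotide and oxygen handling were read from 7 lists. They held 73 genes, of which 69 had a named probe set. In knockout over wild type atria 1 of 59 genes above the floor was past 1.5-fold higher and 1 lower, and in ventricles 0 of 57 in either direction, where 3.03% and 1.20% of all genes passed. The median ratio was -0.062 in atria and 0.010 in ventricles.

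In creatine supply, Slc16a12, described as a creatine carrier, was 1.55-fold higher in knockout atria, at 7.23 against 6.60 in wild type atria. In ventricles it lay below the floor, at 5.61 in knockout against 5.34 in wild type. Gamt, which makes creatine in the last step of its synthesis, was at 0.39 in knockout over wild type ventricles, and Gatm, the enzyme of the first step, at -0.12. Of the other adenylate kinases Ak5, Ak7 and Ak8 lay below the floor on every array.

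Among purine enzymes no gene of 15 in atria or 14 in ventricles was past 1.5-fold between genotypes. Nt5c1a, a cytosolic nucleotidase that turns AMP into adenosine, was at -0.42 in knockout over wild type atria and -0.29 in ventricles. Nme4, a mitochondrial nucleoside diphosphate kinase, read 5.79 in knockout atria against 5.48, below the floor, in wild type atria, and the AMP deaminase gene Ampd2 was at -0.30 in ventricles. The 10 genes of AMP-activated kinase and its upstream kinase were closer still, with ratios between -0.16 (Prkaa1, the alpha1 catalytic subunit) and 0.12 in atria and between -0.076 and 0.14 (Prkag2) in ventricles. Of the gamma subunit genes, Prkag1 was at -0.15 in atria and Prkag3 at 0.094 in ventricles.

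For ATP, ADP and phosphate transport at the mitochondrion, 7 of 8 genes above the floor were negative in knockout over wild type atria, and 2 of 8 in ventricles, where 56.9% and 48.6% of all genes above the floor were. The lowest in atria were the ATP-magnesium carrier gene Slc25a24 at -0.52 and the outer membrane channel gene Vdac3 at -0.50, neither past the fold. In ventricles the largest were Slc25a24 at 0.21 and the ADP/ATP exchanger gene Slc25a5 at 0.18. In the list of globins, cytochrome b5 reductases and oxygen sensing genes 0 of 9 passed in either chamber. The largest were the reductase gene Cyb5r1 (-0.21) and Epas1 (0.16) in atria, and the prolyl hydroxylase gene Egln3 (-0.21) and Hif1a (0.15) in ventricles. The list of 14 muscle energy genes held enzyme isoforms and also regulators. Of these, Tfam, the mitochondrial transcription factor and not a muscle isoform, was 1.51-fold lower in knockout atria. It read 5.97 there, close to the floor, against 6.57 in wild type atria. In ventricles Ppargc1a was at -0.15 and Pgam2 at 0.12.

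In atria over ventricles these lists had medians of -0.23 in knockout and -0.14 in wild type hearts. Past 2-fold were 7 of 59 genes in knockout and 4 of 58 in wild type hearts, where 6.30% of all genes passed in knockout and 6.10% in wild type hearts. Higher in atria in both genotypes were Slc16a12 and Prkag2, the gamma2 subunit of AMP-activated kinase (2.92-fold in knockout, 3.27-fold in wild type). Set against the floor, since its ventricular values lay below it, Slc16a12 was at least 2.87-fold higher in atria in knockout hearts and at least 1.85-fold in wild type hearts, where it passed 2-fold only by its measured value. Lower in atria in both were Stradb, a pseudokinase partner of the kinase LKB1 (2.44-fold in knockout, 2.48-fold in wild type), and Egln3 (2.04-fold in knockout, 2.18-fold in wild type). In knockout hearts alone the fold was also passed by Adk (adenosine kinase), Tfam and Fabp3, at 2.31-fold, 2.13-fold and 2.16-fold lower in atria. In wild type hearts Adk stood at -0.96, Fabp3 at -0.85 and Tfam at -0.47. Tfam was thus well short of the line in wild type hearts, and its value in knockout atria, 5.97, was close to the floor. Among those short of the fold were Guk1 (-0.72) and Ldhb (-0.72) in wild type hearts, Slc25a24 (0.55) and Slc25a23 (0.47) in wild type hearts, and Vdac3 (-0.62) and Slc25a23 (0.26) in knockout hearts.

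Genes with the most similar pattern were found by the Euclidean distance between log2 values on the 4 arrays, each gene centred on its own mean, over 10144 genes. For Ckb they were Arc, an immediate early gene (distance 0.073, knockout ratios 0.69 in atria and 0.52 in ventricles), and Ccn1, a matricellular gene (distance 0.16, ratios 0.91 and 0.42). Only 5 genes lay within 0.2 of Ckb, against 10 for Ak4, 43 for Slc6a8, 73 for Ckmt2, 427 for Ckm, 1188 for Ak3, 1502 for Ak1 and 2278 for Mb. The flat members thus have many genes near them by construction, and their nearest genes say little.

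Nearest to Ckm were Mfn1 (0.029) and Ndufb2 (0.030), to Ckmt2 Hspd1 (0.036) and Tmem63b (0.041), and to Ak4 Fuca2 (0.12) and Bcat2 (0.12). Nearest to Slc6a8 were Tmeff1 (0.072) and Vtn (0.083), to Ak1 Slc25a46 (0.013) and Lyrm2 (0.019), to Ak3 Kif5b (0.0045) and Grip2 (0.010), and to Mb Pomgnt1 (0.0084) and Flt1 (0.0096). Within the set the closest pairs were Ak1 and Ak3 at 0.10, Ak1 and Mb at 0.17, and Ak3 and Mb at 0.23.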

How the data were processed

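The authors deposited 1 table of log2 intensities, 21212 probe sets by 4 arrays, made with RMA and the affy package per the submitters' processing notes, with versions and array design not given in the sources used here. RMA summarises all probes of a gene and compresses differences near background. The 4 columns do not share 1 distribution, so their exact scaling is unknown. The number of arrays limits the precision.

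Probe sets were named through the platform annotation and a RefSeq table of GRCm38.p6: 18786 had 1 symbol, 6 had several and 2420 had none, and of 5 symbols with several probe sets the brightest was kept. Ratios, counts past a fold and medians were computed in Python 3.11.15 (numpy 2.4.6, pandas 2.3.3, statsmodels 0.14.6). The counting code was run on simulated data with planted changes larger than the fold, in genes well above the floor and with little noise. That run checks the code and does not show how reliable a call on these arrays is. Alternatives were median centring, quantile normalization, lowess centring (span 0.3), other floors, other folds and the dimmest probe set. All members, all list genes past a fold, else the 2 with the largest ratios, and the 2 nearest patterns per member were named. Members, lists and rules were chosen with earlier results of these data known.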

Additional observations from a re-analysis of the deposited data

How the results depend on the processing

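No paired analysis was possible because each group has 1 array. Lowess centring, quantile normalization and median centring moved every member ratio and member median by less than the all-gene standard deviation of that comparison. For the knockout ratios that limit was 0.26 in atria and 0.19 in ventricles, larger than most of the member ratios themselves. Staying within it therefore says little about how stable the small ratios are. Signs turned for Ckm, Ak1 and Ak3 in knockout over wild type atria, for Mb in knockout atria over ventricles, and for the difference of knockout ratios of Ak1 and Ak3. The cause was not tested.

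Of the counts of members, the 1 higher in knockout atria became 0 at 2-fold. The 2 lower in atria became 4 in each genotype at 1.5-fold, and in knockout hearts 1 under lowess centring, where Ckmt2 reached -0.997, and 3 under median centring, where Slc6a8 reached -1.02. Of the list genes, the 1 higher and the 1 lower in knockout atria became 0 at 2-fold or with a floor at the 75th percentile, and the lower 1 became 0 under quantile normalization. The 2 higher in atria became 1 with that floor in each genotype. The 5 lower in knockout atria over ventricles became 3 under quantile normalization and lowess centring and 12 at 1.5-fold, and the 2 in wild type hearts became 7.

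Over all genes, knockout atria had 103 higher and 202 lower, a higher share of 33.8%. With no floor there were 289 higher and 269 lower, a higher share of 51.8%, so the majority changed sides. There were 35 and 80 with the floor at the 75th percentile, and 17 and 48 at 2-fold. Knockout ventricles had 50 and 67, against 99 and 121, 22 and 34, and 14 and 22 under the same settings. For atria over ventricles, 350 higher and 288 lower in knockout became 219 higher with the higher floor and 789 and 1026 at 1.5-fold, and 390 and 222 in wild type became 253 higher, and 847 and 785. The higher share in knockout hearts moved to 44.7% under median centring, from 54.9%.

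The genotype and chamber of a pool cannot be told apart from the array that carried it. Ak4 lay nearest the floor and Mb nearest the top of the scale, and what that did to their ratios was not tested.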
